A study of Mus musculus with 4 samples.

Results

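The axon guidance receptors and ligands described here are 52 genes of the ephrin, semaphorin, netrin and slit systems, out of 37310 genes in the table of normalized values. They were chosen by symbol, and all 52 matched a gene identifier in that table: 20 belong to the ephrin system, 21 to the semaphorin system, 6 to the netrin system and 5 to the slit system. Their mRNA was measured by mRNA-seq in mouse embryonic stem cells (mESCs) of the JM8 line, which comes from the C57BL6/N strain. The 2 wild-type libraries came from parental JM8 cells, and the 2 Bmal1-/- libraries from JM8 cells in which both alleles of Bmal1, a transcription factor of the molecular clock, carry CRISPR/Cas9 indels that shift the reading frame. All 4 libraries came from cells without feeders in serum-free N2B27 medium with LIF, 1 µM of the Mek inhibitor PD0325901 and 3 µM of the Gsk3 inhibitor CHIR99021 (2i + LIF). The comparison asks how the levels of these genes differ between the genotypes in naive pluripotent cells.

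The mutant line is a single clone, so that a difference between clones and a difference due to the genotype cannot be told apart. Within each genotype the titles number the libraries as experiments 1 and 2, and the series calls them biological replicates. Separate cultures are not stated, and p-values therefore measure the spread between these libraries. Wild-type libraries held 21737170 and 21504265 gene reads, and Bmal1-/- libraries 23329034 and 23021702. Each value is the number of reads on a gene, scaled per library by the trimmed mean of M values (TMM), so that 3 reads correspond to a value of 3.16 or 3.19 in wild-type and 2.82 or 2.86 in Bmal1-/-. Bmal1 itself, listed as Arntl (ENSMUSG00000055116), had values of 678 and 733 in wild-type and 556 and 590 in Bmal1-/- (log2 fold change −0.30, limma, adjusted p = 0.0011). Its mRNA was present in all 4 libraries, so that its level does not check the labels.

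Axon guidance molecules are cell surface receptors and their secreted or membrane-bound ligands, first known for steering growing axons by attraction or repulsion. Ephrins bind Eph receptor tyrosine kinases on touching cells, semaphorins bind plexins with or without a neuropilin co-receptor, netrins bind Dcc, neogenin and Unc5 receptors, and Slit proteins bind Robo receptors. The same molecules act outside the nervous system in cell sorting, adhesion, migration and vessel growth.

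Many guidance genes were transcribed in naive mESCs of both genotypes. Among those that differed most between genotypes were receptors of the ephrin, semaphorin and slit systems. In the netrin system it was Dcc, which had few reads in wild-type. Dcc, Ephb1, Epha4, Plxnd1 and Robo1 rose in Bmal1-/- cells, together with the ligand Sema7a, while the co-receptor Nrp2 fell. Members whose value averaged 10 or more across libraries, 44 in all, were tested with limma, and these 7 were past 2-fold at an adjusted p under 0.05. Of all 14510 genes tested, 1046 passed the same thresholds (7.21%), 835 of them higher (5.75%) and 211 lower (1.45%). Among members, 6 were higher and 1 was lower. Dcc and Ephb1 reached the mean of 10 only through the Bmal1-/- libraries, where they are high, so the count of 7 includes genes that had to differ to be tested. With both group means at 10 or more, 5 of 41 members passed, beside 714 of 13920 genes (5.13%). With quantile normalization the split was 5 higher and 3 lower for members and 590 higher and 426 lower for all genes. Without wild-type replicate 2 the split was 7 higher and 3 lower for members and 884 and 231 for all genes, and without Bmal1-/- replicate 1 it was 6 and 2 against 784 and 230.

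Of the 41 members with both group means at 10 or more, 5 passed, beside 5.13% of all such genes, and only Sema7a among them was a ligand. Without this condition, receptors made up 6 of the 7, out of 21 receptors and co-receptors tested, and ligands 1 of 23, beside 7.21% of all genes. These receptors include Dcc and Ephb1, which reached the mean of 10 only through the Bmal1-/- libraries, where they are high. Leaving out wild-type replicate 2 gave 5 receptors and 5 ligands, since Robo1 was lost and Efna5, Efnb2, Sema3e and Slit2 were gained, and quantile normalization gave 6 and 2 without Sema7a and with Efna1 and Sema3e. Whether receptors differ from ligands in this share was not tested. Without the fold threshold, 12 members were higher and 11 lower at an adjusted p under 0.05, beside 24.0% of all genes tested higher and 28.6% lower. With equal library totals these counts were 13 and 9 for members, and 4200 and 3194 for all genes. They were 12 and 16 for members and 3254 and 4088 for all genes with quantile normalization, and 9 and 11 against 2545 and 2515 in limma without the trend. The median log2 fold change of the 44 members was 0.014, against −0.030 for all genes tested. It turned to −0.10 with quantile normalization, against −0.055 for all genes. Without wild-type replicate 2 it was −0.045, against −0.031. Among the 28 members with a mean of at least 100 it was −0.076, against −0.0635. The median of members was thus above that of all genes in the main fit and below it in these settings. With equal library totals it was 0.074, against 0.030 for all genes.

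**Figure D1:**
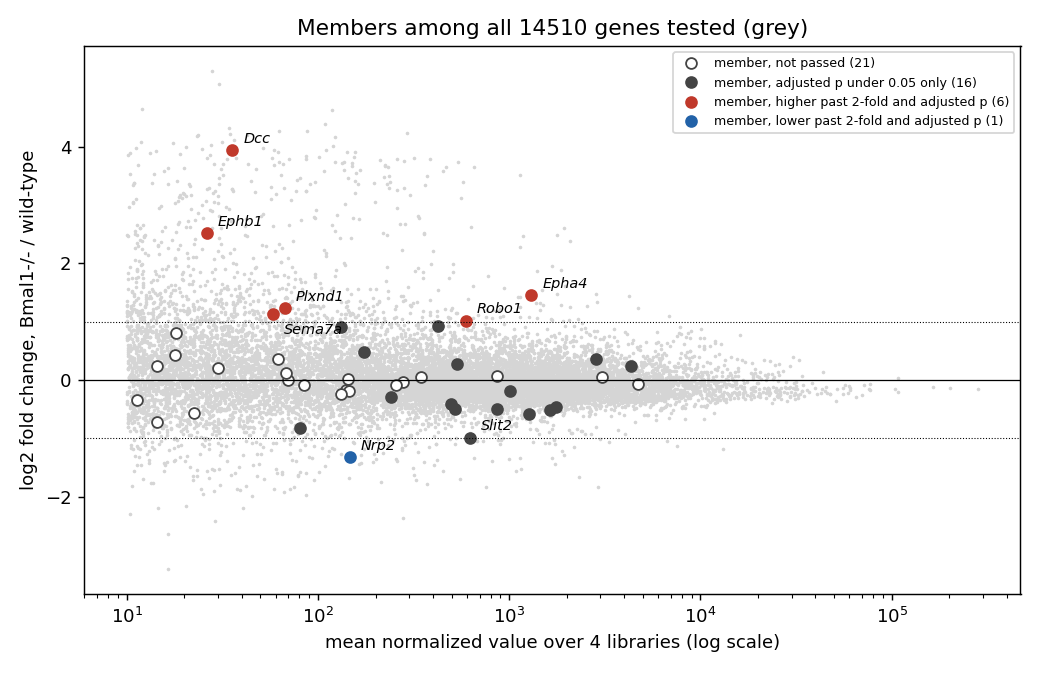
Log2 fold change (y axis, Bmal1-/- over wild-type) against the mean normalized value over 4 libraries (x axis, log scale) for the 14510 genes tested (grey) and the 44 tested members (circles); dotted lines mark 2-fold. Dcc at 3.94 and Ephb1 at 2.52 lie highest among the members, at low mean values, while Epha4 at 1.46 lies at a mean value above 1000.

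The share of genes past both thresholds depended on the level. Among genes with a mean value from 10 to 100, 18.1% of 4024 passed, and 4 of 16 members did so (Ephb1, Sema7a, Plxnd1 and Dcc). With both group means at 10 or more, these were 11.6% of 3436 genes and 2 of 13 members (Sema7a and Plxnd1). From 100 to 1000, 4.58% of 5716 genes passed, and 2 of 19 members (Nrp2 and Robo1). At 1000 and above, 1.17% of 4770 genes passed, and of 9 members only Epha4.

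The cells carried the markers of naive mESCs. All 12 genes of the naive pluripotency list were abundant in every library, and none differed by more than 2-fold. At an adjusted p under 0.05 in limma, 6 of them rose and 5 fell, most of all Dppa3, from 1148 and 1157 to 601 and 590 (log2 fold change −0.95). The values of the list added up to 124247 and 121109 in wild-type and to 130702 and 132475 in Bmal1-/- libraries. Tcfcp2l1, the older symbol of Tfcp2l1, had the highest mean over the 4 libraries, at 27883 and 25102 against 34380 and 35269. Pou5f1 was at 28677 and 29164 against 26483 and 26504.

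Because guidance genes are best known from neurons and vessels, markers of these cells were examined as well. Of 12 neuron markers, 8 were tested, 2 rose and 4 fell at an adjusted p under 0.05, and the list added up to 9069 and 8815 in wild-type and 5875 and 5921 in Bmal1-/-. Stmn2 was the most abundant, at 5830 and 5831 against 4350 and 4451. Past 2-fold were Tubb3 (log2 fold change −1.22), Map2 (−1.44) and Gap43 (−1.76), whereas Elavl3 (0.54) and Isl1 (0.69) rose by less than 2-fold. Gap43 reached the mean of 10 only through the wild-type libraries, where it is high. Dcx, a defining gene of young neurons, was listed at 0 in all 4 libraries. Among 9 neural progenitor markers, 5 were tested. Vim (−1.67), the most abundant, and Pax6 (−1.71, past the filter only through wild-type) fell, and Fabp7 was at 0 in all libraries. Nes (−0.08), Olig2 (−0.16) and Slc1a3 (0.19) did not pass the test. The summed values were 5043 and 4881 against 2477 and 2374, of which Vim made up 3626 and 3458 against 1117 and 1106.

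Of 7 endothelial markers, 3 were tested, and 2 of them rose. The list added up to 1958 and 2015 in wild-type and to 3963 and 3996 in Bmal1-/-. Most of this was Pecam1, which mESCs also express, at 1767 and 1798 against 2885 and 3028. Tie1 rose from 65.3 and 71.2 to 918 and 819 (log2 fold change 3.65), whereas Emcn was at 0 in all libraries and Cdh5 at 0, 0, 2.82 and 0.954. Of 9 fibroblast and mesenchyme markers, 3 were tested and 1 rose, Thy1. The list added up to 94.8 and 108 in wild-type and 145 and 125 in Bmal1-/-, and Prrx1 and Dcn were at 0 throughout.

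Markers of other states that mESC cultures can hold differed as well, not all in the same direction within a list. All 8 two-cell-like markers found in the table (of 10 listed) rose, by log2 fold changes from 2.73 to 3.79, with sums of 233 and 312 in wild-type against 3050 and 3066 in Bmal1-/-, and with Zscan4c the most abundant. Of these, Tdpoz1 and Tdpoz3 reached the mean of 10 only through the Bmal1-/- libraries. Of 10 primitive endoderm markers, 7 were tested, 5 rose and 1 fell, with sums of 853 and 840 against 1376 and 1336. Lama1 had the highest values, and past 2-fold were Col4a1 (1.44), Col4a2 (1.56) and Sox17 (1.27), which rose, and Sox7 (−2.41, past the filter only through wild-type), which fell. Of 7 trophoblast markers, 4 were tested and 2 fell, with sums of 1770 and 1797 against 918 and 896, mostly from Tcfap2c, an older symbol of Tfap2c, which fell (−1.36). The part of these cell types in the differences of guidance genes was not tested, and in bulk mRNA fewer cells of a type and less RNA per cell cannot be told apart.

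In the ephrin system, Epha4 and Ephb1 rose in Bmal1-/- cells, Efnb2 rose by less than 2-fold, and Ephb4, Efna1 and Efna4 fell by less than 2-fold. Of its 20 genes, 17 were tested, 4 of them higher and 5 lower at an adjusted p under 0.05 (52.9%, beside 52.6% of all genes tested). EphA receptors bind mainly the ephrins anchored to the membrane by a lipid (ephrin-A), and EphB receptors mainly the ephrins that span it (ephrin-B). Epha4 binds ligands of both classes.

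Epha4 (ENSMUSG00000026235, chr1:77363760-77511663 in mm9, minus strand) had values of 712 and 684 in wild-type and of 1921 and 1912 in Bmal1-/- cells. Both Bmal1-/- values were above both wild-type values, with replicates close together. This was a log2 fold change of 1.46 (standard error 0.05, limma, adjusted p = 1.6e-14). Epha2 was the most abundant receptor of the system, at 3092 and 2927 in wild-type and 3161 and 3079 in Bmal1-/-. Its groups overlapped, with a log2 fold change of 0.05 and a 95% confidence interval from −0.04 to 0.15. With equal library totals it rose by 0.11 (limma, adjusted p = 0.04, from 0.04 to 0.86 over the alternatives). Epha7 had values between 127 and 150 and Epha1 between 8.58 and 12.7, and neither passed the test.

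Ephb1 (ENSMUSG00000032537, chr9:101824458-102257023 in mm9, minus strand) was at 13.7 and 3.19 in wild-type and at 40.4 and 47.7 in Bmal1-/-. The wild-type libraries differed from each other by more than the Bmal1-/- libraries did, but both lay below them. The log2 fold change was 2.52 (standard error 0.43, limma, adjusted p = 5.7e-05). Leaving out wild-type replicate 1 gave 3.42, leaving out wild-type replicate 2 gave 1.61, and the adjusted p, which ranged from 1.1e-17 to 0.067 over the alternatives, missed 0.05 with no filter on low values and in limma without the trend.

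Ephb4, best known for marking veins, was the most abundant EphB receptor per kilobase of exons. It fell from 1569 and 1471 to 1046 and 990 (log2 fold change −0.58, limma, adjusted p = 4.1e-08), with no overlap of the groups. Ephb2 rose by a log2 fold change of 0.27, and Ephb3 (−0.19) and Ephb6 (−0.29), a member without kinase activity, fell. All 3 missed an adjusted p of 0.05 in limma without the trend and without Bmal1-/- replicate 2. Over the alternatives the highest adjusted p was 0.069 for Ephb2 (limma), 0.14 for Ephb3 and 0.22 for Ephb6 (both DESeq2), and Ephb6 missed 0.05 in 8 of them.

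The ephrin-A ligands were led by Efna4, at 573 and 561 in wild-type and 449 and 407 in Bmal1-/- (log2 fold change −0.41, limma, adjusted p = 0.00014). Efna1 fell from 98 and 108 to 62.9 and 52.4 (−0.83, limma, adjusted p = 0.00037), with no overlap of the groups. These 2 genes lie on chromosome 3 on either side of Efna3, with gaps of 32.8 kb between Efna1 and Efna3 and 10.4 kb between Efna3 and Efna4. Efna3, at 282 and 282 in wild-type and 248 and 305 in Bmal1-/-, did not pass the test (−0.04). Efna2 (−0.19) and Efna5 (0.80) did not pass either. Efna5, at 7.37 and 20.2 in wild-type and 19.7 and 24.8 in Bmal1-/-, passed both thresholds when wild-type replicate 2 was left out (1.47).

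Reads of Efna5 may be undercounted, since a second model of the same symbol, at 0 in all libraries, covers 59.9% of its exon bases on the same strand. Efna3 and Efna4 share 344 and 168 exon bases with genes on the opposite strand, whose highest value was 11.7. Epha1 shares 160 bases with Zyx, at 111 and 114 in wild-type and 125 and 119 in Bmal1-/-, far above Epha1 itself. Ephb4 shares 33 bases with Zan, at 10.5 and 13.8 against 59.2 and 62, and Plxna1 shares 970 with Gm16896, at no more than 25.7. The libraries were stranded, but the strand setting of the counting is not given in the sources used here, and reads in these bases cannot be told apart.

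Efnb2, a ligand that marks arteries, was the ephrin-B gene that changed. It had values of 85.3 and 97.7 in wild-type and 165 and 179 in Bmal1-/-, and both Bmal1-/- values were the higher ones. Its log2 fold change was 0.91 (limma, adjusted p = 1.2e-05), inside the 2-fold threshold, which it passed without wild-type replicate 2 (1.00). Efnb1 ranged from 57.2 to 83.6 over the 4 libraries and Efnb3 from 119 to 143, and neither passed the test.

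**Figure D2:**
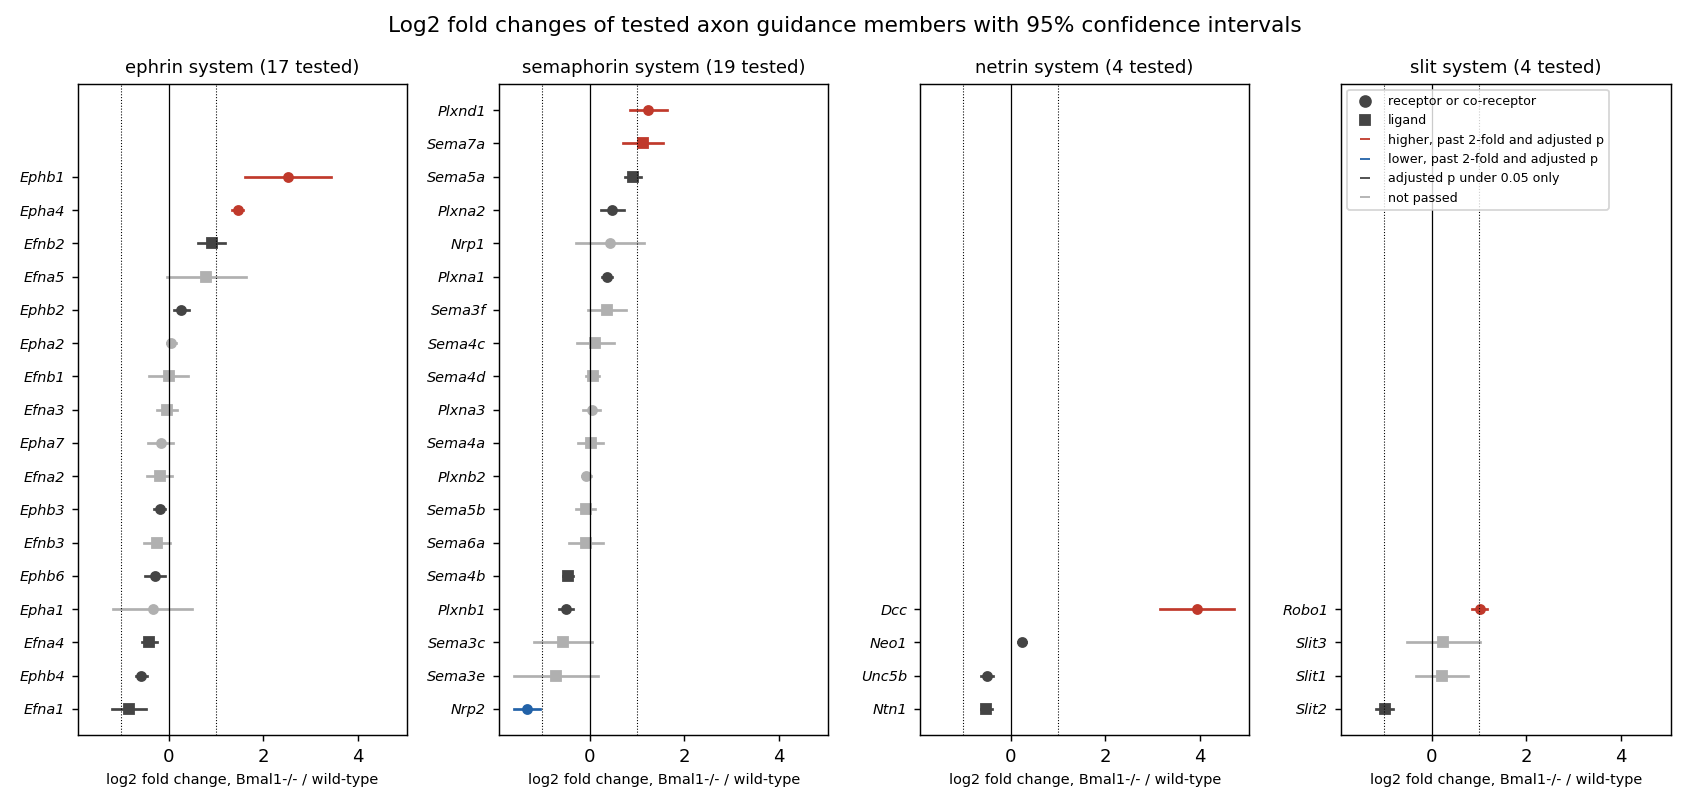
Log2 fold changes (x axis, Bmal1-/- over wild-type) of the 44 tested members in 4 systems, with 95% confidence intervals from limma as lines, receptors as circles and ligands as squares; dotted lines mark 2-fold. Red marks the 6 members that were higher past 2-fold with an adjusted p under 0.05, and blue marks Nrp2, which was lower at −1.32.

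In the semaphorin system, the receptor Plxnd1 and the ligand Sema7a rose past 2-fold, Sema5a rose just short of it, and the co-receptor Nrp2 fell past 2-fold. Of its 21 genes, 19 were tested, 5 of them higher and 3 lower at an adjusted p under 0.05 (42.1%, beside 52.6% of all genes tested). Plexins transmit the signal into the cell, whereas neuropilins have short intracellular parts and mainly add binding affinity for secreted semaphorins of class 3.

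Nrp2 (ENSMUSG00000025969, chr1:62749859-62865269 in mm9, plus strand) was at 217 and 205 in wild-type and at 83.6 and 83.9 in Bmal1-/-. The replicates lay close together and the groups far apart. Expressed as a log2 fold change, the difference was −1.32 (standard error 0.13, limma, adjusted p = 4.1e-08). Its paralog Nrp1 was at 14.7 and 14.9 in wild-type and 25.4 and 16.2 in Bmal1-/-, and the test did not pass (0.43, limma, adjusted p = 0.3). Per kilobase of exons, Nrp2 made up 90.1% and 89.5% of the neuropilin level in wild-type and 67.2% and 76.3% in Bmal1-/-.

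Plxnd1 (ENSMUSG00000030123, chr6:115904829-115945023 in mm9, minus strand), a receptor known from blood vessels, had values of 42.1 and 37.2 in wild-type. The values were 91.1 and 98.2 in Bmal1-/-, above both wild-type libraries. The difference was a log2 fold change of 1.24 (standard error 0.19, limma, adjusted p = 1.2e-05). Plxnb2 was the most abundant plexin, at 4943 and 4735 in wild-type and 4709 and 4510 in Bmal1-/-. It did not pass the test (−0.07, 95% confidence interval from −0.16 to 0.02). Plxnb1 fell from 635 and 594 to 440 and 426 (−0.50, limma, adjusted p = 8.1e-06), and Plxna1 and Plxna2 rose by log2 fold changes of 0.36 and 0.47, of which Plxna2 missed the test without Bmal1-/- replicate 1. Plxna3 did not pass the test (0.04).

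Sema7a (ENSMUSG00000038264, chr9:57787920-57810671 in mm9, plus strand), the semaphorin anchored to the membrane by a lipid, was at 33.7 and 38.2 in wild-type and at 86.4 and 73.4 in Bmal1-/-. Both Bmal1-/- values were the higher ones. The log2 fold change was 1.13 (standard error 0.20, limma, adjusted p = 7.8e-05). It was 0.97 with a pseudocount of 10 and 0.89 with quantile normalization, so that the gene no longer passed 2-fold. Sema5a, a transmembrane semaphorin with thrombospondin repeats, rose from 298 and 286 to 536 and 571 (0.92, limma, adjusted p = 8.4e-09).

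Sema4b was the most abundant semaphorin, at 2107 and 1956 in wild-type. It was at 1473 and 1482 in Bmal1-/-, below both wild-type libraries (−0.46, limma, adjusted p = 2.9e-07). Among the other membrane semaphorins, Sema4a, Sema4c, Sema4d, Sema5b and Sema6a did not pass the test, with log2 fold changes from −0.08 to 0.12. The 3 tested secreted semaphorins were low, with values from 6.68 to 71.4, and none passed the test in the main limma fit. Their adjusted p-values were 0.12 for Sema3c, 0.17 for Sema3e and 0.12 for Sema3f. Sema3e was lower past both thresholds with quantile normalization (−1.26) and without wild-type replicate 2 (−1.12), Sema3c passed the adjusted p with quantile normalization and in limma without the trend, and Sema3f without wild-type replicate 2.

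Bmal1 with its partner Clock binds the E-box CACGTG, which reads the same on both strands, so the promoters of the members were searched for it. RefSeq promoter windows (build GRCm38.p6, from 250 bases before to 50 after each start) were found for 45 of the 52 members. None of the 6 windows of Epha4, Ephb1, Sema7a, Plxnd1, Nrp2 and Robo1 held CACGTG, and Dcc was not matched. Among all members, 5 of 45 genes held it (Sema6d, Epha8, Sema3e, Sema4b and Robo2), or 11.1%, against 2187 of 27025 genes with a window (8.09%). By window, 5 of 59 held it, against 2349 of 32851 (7.15%). Of these 5, Sema6d, Epha8 and Robo2 had means under 10 and were not tested. In the main fit Sema4b passed the test and Sema3e did not. To show what these windows hold, the 120 bases before the start are printed 5′ to 3′ for the member with the highest log2 fold change among those with a window (Ephb1), the one that fell past 2-fold (Nrp2) and the one that fell and held an E-box (Sema4b, the downstream of its 2 RefSeq starts, which lies within the gene). CACGTG is in capitals. The Ephb1 stretch is chr9:102354694-102354813 on the minus strand, the Nrp2 stretch chr1:62703197-62703316 on the plus strand and the Sema4b stretch chr7:80198468-80198587 on the plus strand, all in GRCm38.p6.
Ephb1: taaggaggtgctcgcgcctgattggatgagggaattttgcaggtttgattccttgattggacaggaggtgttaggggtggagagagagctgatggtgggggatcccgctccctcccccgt
Nrp2: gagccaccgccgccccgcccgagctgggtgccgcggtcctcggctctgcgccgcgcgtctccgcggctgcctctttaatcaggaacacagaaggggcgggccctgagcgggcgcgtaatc
Sema4b: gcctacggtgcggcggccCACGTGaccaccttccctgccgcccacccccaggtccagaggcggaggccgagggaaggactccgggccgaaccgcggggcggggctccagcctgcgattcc
In Sema4b the first base of the motif lay at position −102 from the start. A match describes these letters only, and binding of Bmal1 was not measured here. The windows of members had a median GC content of 64.7%, against 52.7% for all windows.

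In the netrin system, Dcc rose by the largest log2 fold change of the 44 tested members, Neo1 rose slightly, and the ligand Ntn1 and the receptor Unc5b fell by less than 2-fold. Of its 6 genes, 4 were tested. Dcc is the receptor through which netrin attracts axons, and Unc5 receptors mediate repulsion. Both are also known as dependence receptors, which signal cell death when no ligand is bound.

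Dcc (ENSMUSG00000060534, on chromosome 18) was at 2.11 and 5.31 in wild-type, which correspond to 2 and 5 reads, and at 78 and 57.2 in Bmal1-/-. It was thus near the floor of 3 reads in wild-type and clearly detected in both Bmal1-/- libraries. The log2 fold change was 3.94 (standard error 0.38, limma, adjusted p = 3.5e-08), on a log2(value + 1) scale that understates the change of low genes. It was 2.5 with a pseudocount of 10. Even at 78, Dcc had few transcripts beside its paralog neogenin: per kilobase of exons it made up 0.0354% and 0.0959% of the netrin receptor level in wild-type and 1.27% and 0.924% in Bmal1-/-.

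Neo1, which encodes neogenin, a receptor for netrins and for repulsive guidance molecules, was the most abundant netrin receptor. Its values were 4102 and 3839 in wild-type and 4653 and 4704 in Bmal1-/- (0.24, limma, adjusted p = 0.00011). In limma without the trend the adjusted p was 0.054, the highest of a range from 2.4e-08 over the alternatives. Unc5b fell from 1060 and 970 to 707 and 722 (−0.50, limma, adjusted p = 1.2e-06). Its ligand Ntn1 was at 2045 and 1826 in wild-type and at 1353 and 1353 in Bmal1-/- (−0.51, limma, adjusted p = 1.8e-07). For all 3 genes the groups did not overlap, as for 76.0% of all genes tested. Ntn4 and Unc5c, with values from 3.19 to 8.45 and from 1.05 to 4.77, were under the mean of 10 and were not tested.

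In the slit system the receptor and its main ligand moved in opposite directions. Robo1 rose, and Slit2 fell by a change just inside the 2-fold threshold. Slit proteins are secreted and are known for repelling axons and migrating cells that carry Robo receptors.

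Robo1 (ENSMUSG00000022883, chr16:72663394-73046340 in mm9, plus strand) was at 419 and 363 in wild-type and at 790 and 792 in Bmal1-/-. Both Bmal1-/- values were nearly equal and above both wild-type values. The log2 fold change was 1.02 (standard error 0.08, limma, adjusted p = 8.2e-10). It lay just past the threshold and was 0.91 without wild-type replicate 2. Slit2 was at 895 and 758 in wild-type and at 449 and 382 in Bmal1-/-, with no overlap. Its log2 fold change was −0.99 (standard error 0.09, limma, adjusted p = 7.5e-09), and it passed 2-fold when wild-type replicate 2 or Bmal1-/- replicate 1 was left out. Slit1 ranged from 23.4 to 33.4 and Slit3 from 10.5 to 16.9, their groups overlapped and neither passed the test. Robo2 had no more than 1 read in any library.

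**Figure D3:**
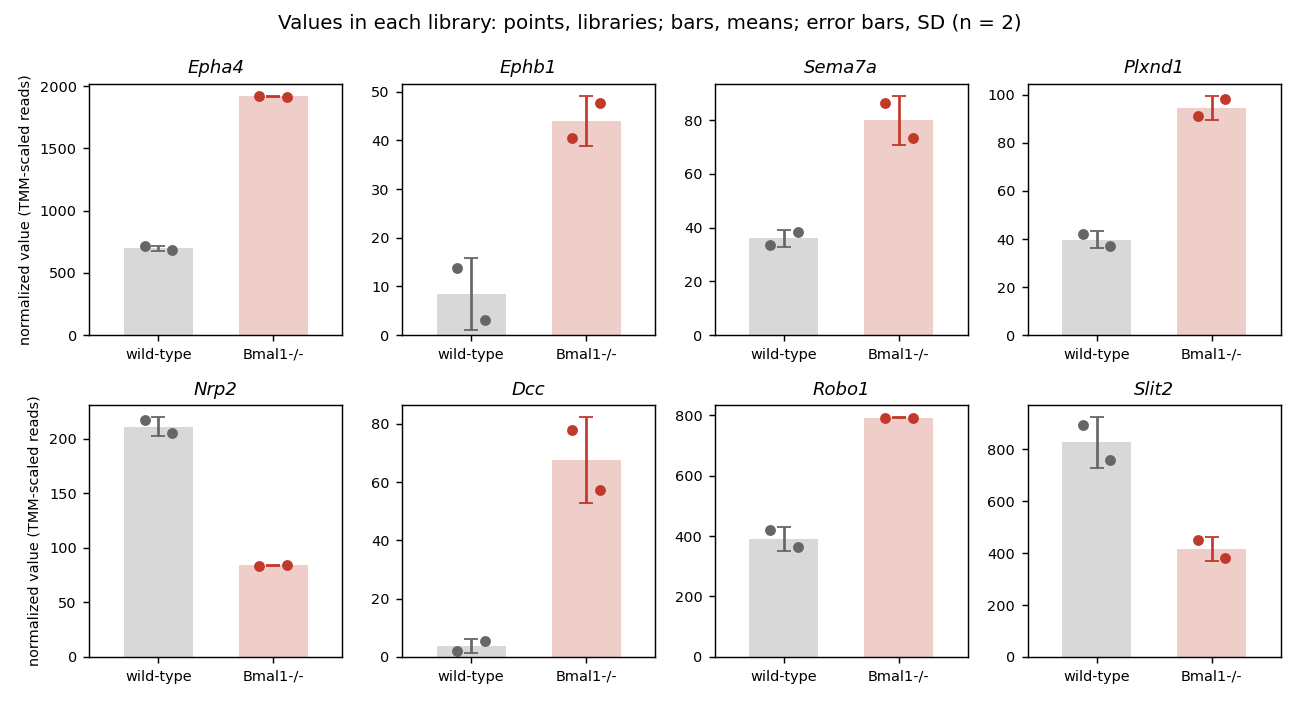
Normalized values (y axis, TMM-scaled reads, each panel from 0) of the 7 members past both thresholds and of Slit2, in wild-type (grey) and Bmal1-/- (red) libraries; points are libraries, bars means and error bars SD (n = 2). In each of the 8 panels both libraries of one genotype lie above both libraries of the other, as in 76.0% of all genes tested. The wild-type values of Ephb1, 13.7 and 3.19, are the furthest apart relative to their mean.

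Levels of different genes were compared as the normalized value per kilobase of merged exons. On this scale the 26 receptors and co-receptors added up to 3321 and 3126 in wild-type and to 3470 and 3391 in Bmal1-/-. The 26 ligands added up to 1748 and 1667 in wild-type and to 1433 and 1404 in Bmal1-/-, so that the summed ligand level was lower in both Bmal1-/- libraries. These orders were the same with median-ratio size factors, equal library totals and quantile normalization. The mean level of Sema4b went from 374 in wild-type to 272 in Bmal1-/-, that of Efna4 from 355 to 268. Ntn1 went from 308 to 216. Of the 23 tested ligands, 11 had positive and 12 negative log2 fold changes. Their median was −0.035, against −0.030 for all genes tested. The sum over all 52 members overlapped between genotypes, at 5068 and 4793 against 4902 and 4795. Over all 37310 genes the same sum was lower in Bmal1-/-, at 8.83e+06 and 8.90e+06 against 8.01e+06 and 7.96e+06. The sums of members and roles were not scaled to it. These sums are descriptions and were not tested.

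Within the ephrin system, the EphA sum was 794 and 753 in wild-type and 998 and 977 in Bmal1-/-, whereas the EphB sum went from 620 and 596 to 487 and 471. Epha2 held 83.3% and 83.1% of the EphA level in wild-type and 67.8% and 67.4% in Bmal1-/-. The share of Epha4 was 14.2% and 14.3% in wild-type and 30.4% and 30.9% in Bmal1-/-. The level of Epha2 itself overlapped between genotypes. The ephrin-A sum was 599 and 606 in wild-type and 487 and 477 in Bmal1-/-. Ephrin-B ligands were scarcer, at 84.8 and 83.3 against 96.2 and 92, with groups that overlapped under quantile normalization. Efnb2 made up 21.0% and 24.5% of the ephrin-B level in wild-type and 35.9% and 40.7% in Bmal1-/-.

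The membrane semaphorins added up to 649 and 606 in wild-type and to 569 and 562 in Bmal1-/-, well above the secreted ones at 20.6, 22.9, 24.7 and 23.1. The order of the genotypes in the secreted semaphorins turned with quantile normalization. Plexins had the highest sum of the 12 roles in every library, at 1101 and 1028 in wild-type and 1129 and 1080 in Bmal1-/-, with groups that overlapped here but not with equal library totals or quantile normalization. Plxnb2 held 61.4% and 62.9% of it in wild-type and 57.0% and 57.1% in Bmal1-/-. Neuropilins were at 25.3 and 24.1 against 13.1 and 11.6.

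Netrin receptors were at 737 and 686 in wild-type and at 761 and 768 in Bmal1-/-, and netrins at 327 and 292 against 218 and 217. Ntn1 held between 99.0% and 99.7% of the netrin level. Robo receptors went from 44 and 38.1 to 82.8 and 83.1, and Slit ligands from 66.6 and 56.8 to 37.8 and 33.3. The Slit sum was therefore above the Robo sum in both wild-type libraries and below it in both Bmal1-/- libraries.

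**Figure D4:**
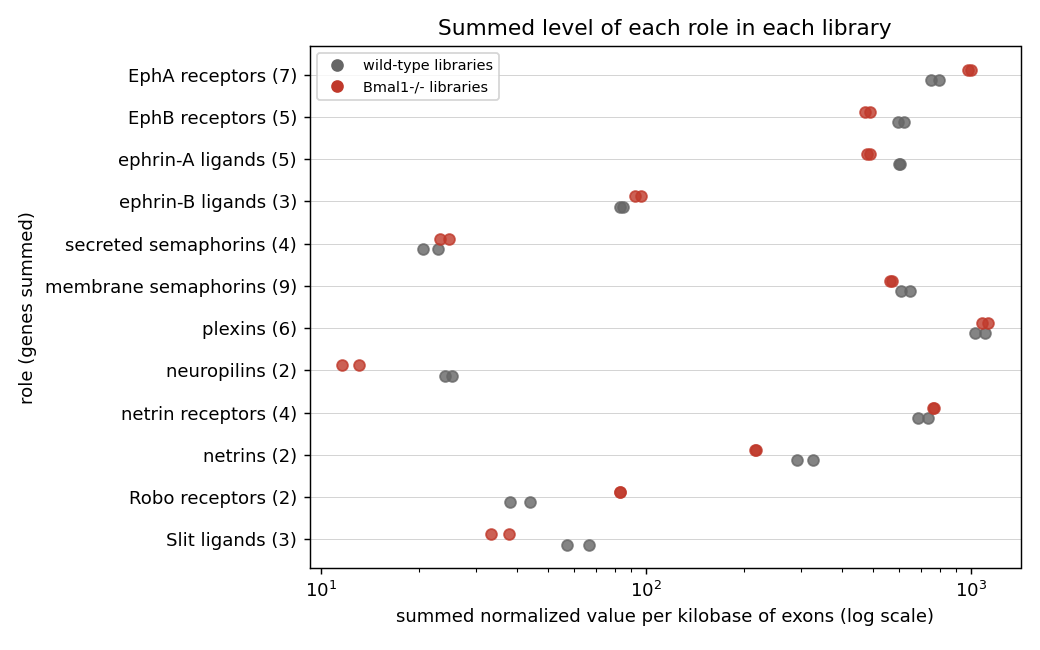
Summed normalized value per kilobase of exons (x axis, log scale) of the genes in each of 12 roles, with the number of genes in parentheses; grey points are wild-type and red points Bmal1-/- libraries. Plexins lie furthest right, and neuropilins and Slit ligands lie lower and Robo receptors higher in both Bmal1-/- libraries.

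The 8 members that were not tested, because their mean was under 10, had values from 0 to 8.45. They are Epha3, Epha5, Epha8, Sema3a, Sema6d, Unc5c, Ntn4 and Robo2, and 5 of them had no more than 3 reads in any library. Of the 44 tested members, 32 had groups that did not overlap, as did 76.0% of all genes tested. The 21 that did not pass the test had log2 fold changes from −0.72 to 0.80. Besides those named above, Epha7, Efna2 and Efnb3 passed an adjusted p of 0.05 with quantile normalization, Efnb3 also in limma without the trend.

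Other genes of the same families were counted from a separate list of 24, of which 16 were tested, with 5 higher and 2 lower at an adjusted p under 0.05 (7 of 16, beside 52.6% of all genes tested). Past 2-fold there were 3 of the 16, all higher and all receptors with means from 10 to 100, where 18.1% of all genes passed. Robo3 and Unc5a reached the mean of 10 only through the Bmal1-/- libraries, and of the 13 with both group means at 10 or more only Robo4 passed. Robo4, known from endothelium, was at 12.6 and 13.8 in wild-type and 49.8 and 54.4 in Bmal1-/- (a 3.94-fold ratio of the means, limma, adjusted p = 6.4e-06). Robo3 was at 7.37 and 6.37 against 17.8 and 18.1 (log2 fold change 1.27, limma, adjusted p = 0.011). Unc5a was at 12.6 and 4.25 against 23.5 and 20 (1.42, limma, adjusted p = 0.0091). All groups were separate, as in 76.0% of all genes tested, and the 3 fell to 1 in DESeq2.

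Effectors and partners of guidance signalling, most of them intracellular and some at the cell surface (Met, L1cam and Adam10), were counted from a list of 63, of which 61 were tested. At an adjusted p under 0.05, 23 were higher (37.7%) and 16 lower (26.2%), beside 24.0% and 28.6% of all genes, and 5 passed 2-fold (8.20%, beside 7.21%). Crmp1, a collapsin response mediator of semaphorin signalling, fell from 475 and 484 to 159 and 151 (−1.63, limma, adjusted p = 1.2e-11). Its relative Dpysl4 rose from 22.1 and 14.9 to 52.6 and 50.5 (1.46, limma, adjusted p = 0.00011). The tyrosine kinase gene Fes rose from 175 and 177 to 440 and 424 (1.29, limma, adjusted p = 4.2e-10).

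Chn2, which encodes a Rac-inactivating chimaerin, rose from 47.4 and 62.7 to 115 and 120 (1.09, limma, adjusted p = 2.3e-05). Nfatc2, a transcription factor gene, rose from 63.2 and 60.5 to 148 and 151 (1.26, limma, adjusted p = 5.9e-07). In all 5 effectors both libraries of one genotype lay above both of the other, as in 76.0% of all genes tested. These 5 were picked by a test on the same values. The most abundant effector, the actin-severing factor Cfl1, was at 24480 and 25184 in wild-type and at 21332 and 21330 in Bmal1-/- (−0.22, limma, adjusted p = 4.3e-05).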

How the data were processed

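Stranded mRNA libraries, 2 of each genotype, were made from JM8 mESCs. The authors trimmed adapters with cutadapt 1.9.1, aligned reads to mm9 with STAR 2.5.2b and deposited a signal per gene and library, the read count divided by a TMM factor of the library; the counting tool and its annotation are not given in the sources used here. The 37310 gene identifiers were those of GENCODE M1, from which symbols, coordinates and merged exon lengths were taken. All values (100%) were whole multiples of the value of 1 read in their library, with a tolerance of 0.01 of a read, so that whole reads could be recovered.

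Differences were tested with limma 3.58.1 in R 4.3.3 (lmFit, eBayes with a trend) on log2(value + 1) across the 14510 genes that averaged 10 or more, with Benjamini-Hochberg adjustment over all of them. All 4 libraries entered the fit, with no covariate. Called genes had an absolute log2 fold change above 1 and an adjusted p under 0.05. The code was tested on simulated data. On whole reads, edgeR 4.0.16 called 1091 genes and DESeq2 1.42.0 called 862, against 1046 in limma. Other alternatives changed the pseudocount, the filter on low values, the scaling between libraries and the trend, added the replicate number as a block, or left out each library.

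Named genes are the members that passed both thresholds, those with an adjusted p under 0.05 and an absolute log2 fold change of at least 0.5, the ligand and receptor with the highest mean value in each system, other pathway genes past both thresholds, and the most abundant and called genes of each marker list. The members and lists were chosen with earlier results of these data known. Plots were drawn with Python 3.11.15 and matplotlib 3.10.9.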

Additional observations from a re-analysis of the deposited data

How the results depend on the processing

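The 7 members past both thresholds were the same genes with a pseudocount of 0.5, a filter at a mean of 1, median-ratio size factors, equal library totals, edgeR and DESeq2. The count was 3 (2 higher) with a mean of at least 100, a filter that removes 4 of the 7. With quantile normalization, 3 members were lower, among them Efna1 and Sema3e, and the median log2 fold change of the members was −0.10; it was −0.076 with a mean of at least 100 and −0.045 without wild-type replicate 2. The cause was not tested.

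With each library left out in turn, the count ranged from 7 to 10, with 6 to 7 higher and 1 to 3 lower, beside 956 to 1115 of all genes (6.59% to 7.68%). The single library left in a group is then assumed to vary like the other group. Other family members past both thresholds, 3 in the report, were 1 with a pseudocount of 10, with quantile normalization and in DESeq2, 0 with a mean of at least 100 (limma), 1 to 3 with a library left out, and 4 with no filter and with a mean of at least 1. Effectors past both thresholds were 3 with a mean of at least 100, against 5. No member that passed the test changed direction under these alternatives.

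With the replicate number as a block, 7 members passed both thresholds. Deviations of libraries with the same number correlated at −0.02 across genes, and the titles give both genotypes the same experiment numbers without saying whether a number marks a common day or batch, so no pairing was assumed. The 8 members under a mean of 10 held few reads and were not tested in the main fit.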
